A study of Mus musculus with 10 samples.

Results

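The aminoacyl-tRNA synthetases are 35 genes of the deposited expression table, of 22198 genes in all, found by their symbols. They fall into 19 enzymes of the cytosol (Farsa, Farsb and the symbols that end in 1) and 16 enzymes of the mitochondrion (symbols that end in 2). All 35 were found and all 35 passed the filter on low values. Each RNA-seq library was made from brain cortex, and the mice were untreated and 6 months old. There were 5 libraries labelled BKO, with the genotype Mic19 knockout, and 5 labelled ctrl, with the genotype Mic19 WT. The labels used here do not say in which cells Mic19 was deleted, what drove the deletion, what strain the mice were or whether a mouse gave more than 1 library, and p-values measure the spread between these libraries only. Mic19, whose gene is Chchd3, is a subunit of the complex that shapes the folds of the inner mitochondrial membrane. The title of the study names leakage of mitochondrial DNA, inflammation, serine metabolism and epilepsy, and its design text names inflammation genes.

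An aminoacyl-tRNA synthetase joins an amino acid to the transfer RNA that carries it to the ribosome, at the cost of ATP. Cells keep separate enzymes, nearly all encoded by separate nuclear genes, for the ribosomes of the cytosol and for those of the mitochondrion, which translate the few proteins encoded by mitochondrial DNA. Several cytosolic synthetases are bound together in a multisynthetase complex. The transcription factor ATF4, made when the integrated stress response is active, is known to bind the genes of many cytosolic synthetases through a C/EBP-ATF response element.

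Among the libraries labelled BKO, 6 of the 19 cytosolic synthetases were higher than in those labelled ctrl and none was lower. They were Eprs1, which stood at 1.53 times its ctrl level, and Wars1, Sars1, Mars1, Aars1 and Cars1, which stood at 1.13 to 1.19 times theirs. Of the 16 mitochondrial enzymes 1 was higher, Fars2, at 1.27 times its ctrl level, and none was lower. Each was called at an adjusted p under 0.05 (limma on log2(FPKM + 0.5), Benjamini-Hochberg over 14447 genes). On the same rule 3.32% of all tested genes were higher and 2.46% lower in the libraries labelled BKO, 5.79% in either direction, beside 7 of the 35 synthetases. The median standard error (SE) of the log2 difference was 0.0460 for the cytosolic enzymes and 0.0783 for all tested genes. Small changes were thus easier to call among the cytosolic enzymes than in a typical gene. Calls of single members depended on single libraries for Cars1, Mars1 and Fars2, as given beside their values.

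The values of the whole series set 3 limits. Chchd3 stood at 94.2, 89.4, 88.3, 81.5 and 87.7 FPKM in BKO 1 to 5, against 73.1, 77.3, 80.6, 79.0 and 82.2 FPKM in ctrl 1 to 5, so under the BKO label the gene named as deleted was no lower than under ctrl (log2 difference 0.17, SE 0.0472, limma adjusted p = 0.0528). A whole-gene value cannot show whether some exons are missing, and every direction below follows the labels. Ttr, a defining gene of the choroid plexus, was at 2632, 2384, 89.9, 67.2 and 2720 FPKM in BKO 1 to 5 and at 2568, 39.8, 1531, 38.9 and 1098 FPKM in ctrl 1 to 5, so 6 libraries carried much more of it than BKO 3, BKO 4, ctrl 2 and ctrl 4. All 8 oligodendrocyte markers were lower in the libraries labelled BKO, summing to 974 to 1322 FPKM against 2888 to 3455 FPKM in those labelled ctrl. Of 6 astrocyte markers 4 were higher, with sums of 1913 to 2160 FPKM in BKO libraries against 1519 to 1716 FPKM in ctrl libraries. The 7 neuron markers summed to 3792 to 4211 FPKM in BKO and 4117 to 4557 FPKM in ctrl libraries, with 1 lower in BKO. The 6 microglia markers summed to 223 to 249 FPKM in BKO and 190 to 228 FPKM in ctrl libraries, with 1 higher in BKO, and none of these markers was at 0 throughout. The 9 choroid plexus markers, Ttr included, summed to 73 to 2766 FPKM in BKO and 46 to 2621 FPKM in ctrl libraries, and 0 of them were called, as were 0 of 5 endothelial, 2 oligodendrocyte precursor and 3 red blood cell markers. The values of the called synthetases with the choroid plexus markers as a covariate, and in the 4 libraries with little Ttr, are given with the results. What part the other cell types had was not tested, and in whole cortex fewer cells of a type and less RNA per cell cannot be told apart.

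Because ATF4 acts through a known element, promoters were searched for it. The sequences given are the matches and the whole windows of 3 called members, Aars1 with a pair of matches, Eprs1 with the largest change and Sars1 with the highest level. RefSeq promoter windows (250 bases before to 50 after the annotated start, build GRCm38.p6) were searched for 26 of the 35 members, 12 cytosolic and 14 mitochondrial. Cars1, Hars1, Lars1, Nars1, Rars1, Vars1, Wars1, Hars2 and Pars2 were left out of the search. The shares of member windows therefore do not cover them, and say nothing of whether their promoters hold the element. The letters TGATGNAA, searched on both strands, occurred in 5 of the 12 cytosolic windows (41.7%), in 0 of the 14 mitochondrial ones and in 3.97% of all 32851 windows. The 5 were Aars1, Gars1, Iars1, Tars1 and Yars1. Capitals mark the match, which reads TTGCATCA or TTTCATCA where it lies on the strand opposite to the gene. Aars1 had a pair of matches, at bases 139 to 146 and 260 to 267 of its window. The other matches are given with the bases around them, 30 in all, from chr6:55037960-55037989 (plus strand) for Gars1, chr13:49682126-49682155 (plus strand) for Iars1, chr15:11399655-11399684 (minus strand) for Tars1 and chr4:129189895-129189924 (plus strand) for Yars1.
Gars1: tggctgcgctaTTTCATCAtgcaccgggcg
Iars1: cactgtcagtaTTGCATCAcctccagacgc
Tars1: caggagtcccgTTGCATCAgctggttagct
Yars1: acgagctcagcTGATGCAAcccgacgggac

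The whole windows of Aars1 (chr8:111033592-111033891, plus strand), Eprs1 (chr1:185362794-185363093, plus strand) and Sars1 (chr3:108445210-108445509, minus strand) are printed 5′ to 3′ along the gene. Those of Eprs1 and Sars1 hold no TGATGNAA, so they carry no capitals.
Aars1: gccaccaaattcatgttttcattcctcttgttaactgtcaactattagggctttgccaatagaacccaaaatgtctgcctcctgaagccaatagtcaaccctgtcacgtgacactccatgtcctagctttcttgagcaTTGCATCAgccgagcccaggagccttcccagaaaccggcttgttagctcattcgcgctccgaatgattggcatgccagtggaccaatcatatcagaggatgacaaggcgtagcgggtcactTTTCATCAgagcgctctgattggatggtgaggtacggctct
Eprs1: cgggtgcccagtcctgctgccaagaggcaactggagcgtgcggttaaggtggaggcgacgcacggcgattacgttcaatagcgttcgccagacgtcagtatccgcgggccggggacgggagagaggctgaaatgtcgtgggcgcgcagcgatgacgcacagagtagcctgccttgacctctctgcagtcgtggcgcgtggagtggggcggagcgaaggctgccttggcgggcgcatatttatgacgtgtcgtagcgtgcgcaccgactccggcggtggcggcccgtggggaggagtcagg
Sars1: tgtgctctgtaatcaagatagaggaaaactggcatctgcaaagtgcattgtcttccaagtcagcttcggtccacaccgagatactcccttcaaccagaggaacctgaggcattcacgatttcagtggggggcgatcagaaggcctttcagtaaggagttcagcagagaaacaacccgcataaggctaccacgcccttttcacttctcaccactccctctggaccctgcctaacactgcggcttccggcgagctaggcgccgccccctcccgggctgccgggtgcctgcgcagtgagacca

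Of the 5 genes with the element in this window, 1 was called, Aars1. Eprs1, Sars1, Mars1 and Fars2 were called and have no match in theirs. Cars1 and Wars1 were called too, and their promoters were not analysed here. The full cAMP response element, TGACGTCA, which reads the same on both strands, was in 0 of 12 cytosolic and 0 of 14 mitochondrial windows and in 1.79% of all windows. The consensus site of NRF1, a regulator of nuclear genes for mitochondria, was in 3 of 12 cytosolic windows (Farsb, Kars1 and Tars1), in 2 of 14 mitochondrial windows (Iars2 and Mars2) and in 4.6% of all windows. The promoters were alike in base composition, with a median GC content of 56.4% for cytosolic and 58.1% for mitochondrial windows, against 52.7% for all. A match or its absence in these 300 bases says nothing of whether a factor binds.

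Levels are in FPKM, a unit that by its name is per transcript length and library size, although how the authors computed it is not given in the sources used here, and the order of genes rests on it. Cytosolic enzymes ran from 18.1 FPKM for Vars1 to 204 FPKM for Sars1, with a median of 44.6 FPKM over all 10 libraries. Mitochondrial enzymes ran from 2.91 FPKM for Ears2 to 26.4 FPKM for Iars2, with a median of 11 FPKM. Sars1, the seryl enzyme, and Nars1, the asparaginyl enzyme, were far above the rest, at 16.7% and 14.5% of the cytosolic sum. Below them came Aars1 (94.8 FPKM), Gars1 (89.2 FPKM), Yars1 (86.9 FPKM), Wars1 (76.3 FPKM) and Hars1 (73.0 FPKM). The ranges over the 10 libraries of each neighbour in that order from Aars1 to Wars1 overlapped, and so did those of Wars1 and Hars1. Iars2 was the mitochondrial enzyme closest to its cytosolic partner, at 26.1 ± 1.80 FPKM in BKO and 26.7 ± 2.24 FPKM in ctrl libraries (SD, n = 5 each), where Iars1 stood at 27.8 ± 1.42 FPKM in BKO and 25.4 ± 1.81 FPKM in ctrl libraries. Of the annotated exon bases of Iars2, 32.2% overlap 2 other genes on the opposite strand. Whether reads of those genes add to its level was not tested. The mitochondrial sum made up 14.4% of the FPKM of all 35 members.

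**Figure D1:**
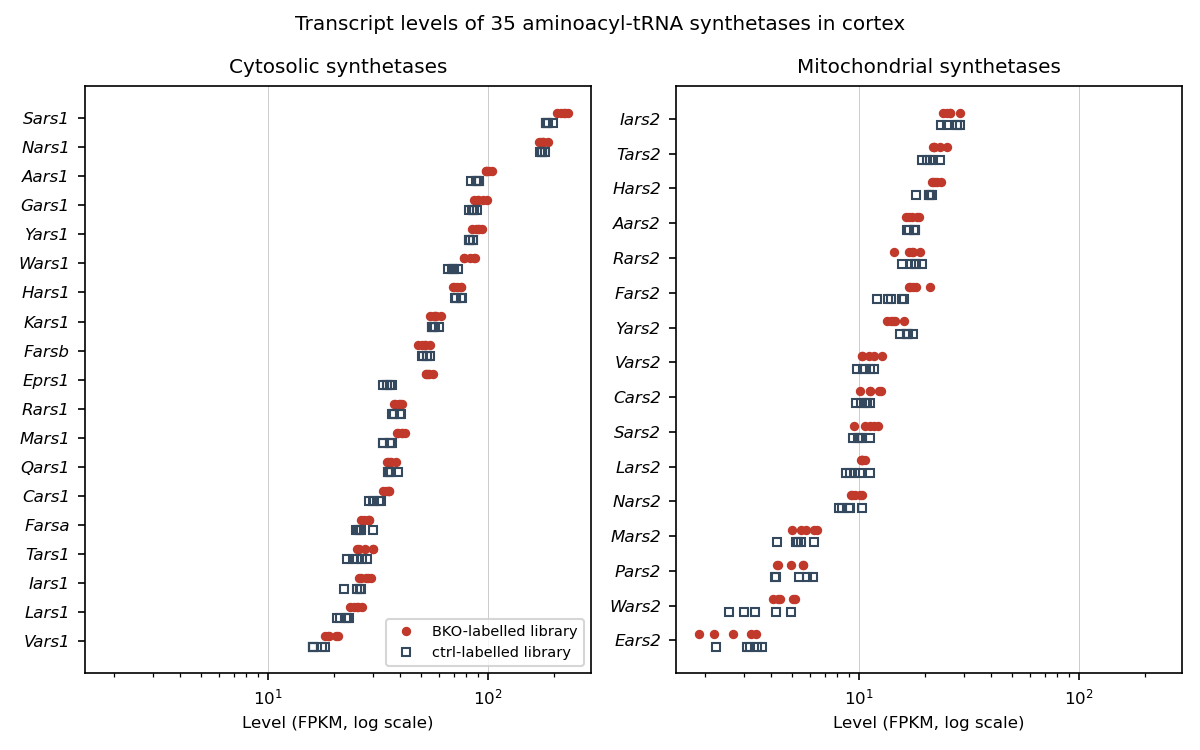
Level of each synthetase in each library (x axis, FPKM on a log scale), with cytosolic enzymes on the left and mitochondrial enzymes on the right, ordered by their mean. Filled circles are the 5 BKO-labelled libraries and open squares the 5 ctrl-labelled ones, and the Eprs1 groups stand well apart (54.0 ± 1.56 against 35.2 ± 1.31 FPKM).

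Summed over the 19 cytosolic enzymes, the BKO libraries stood at 1246 to 1299 FPKM and the ctrl libraries at 1147 to 1188 FPKM, with no overlap. Without Eprs1 the sums were 1192 to 1246 FPKM in BKO and 1112 to 1155 FPKM in ctrl libraries. Without the 6 called enzymes they were 727 to 772 FPKM in BKO and 709 to 732 FPKM in ctrl libraries, and the groups overlapped. The 6 were chosen as higher in these same libraries, so a smaller gap among the rest follows from that choice. It does not show that the rest did not differ. The 16 mitochondrial enzymes summed to 201 to 222 FPKM in BKO and 196 to 206 FPKM in ctrl libraries, which also overlapped. These sums are descriptions, and no test was made on them.

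Eprs1, the bifunctional enzyme that charges both glutamyl and prolyl tRNAs and is part of the multisynthetase complex, differed most. Its level was 56.5, 54.2, 53.6, 52.7 and 52.7 FPKM in BKO 1 to 5, against 36.8, 34.8, 36.1, 33.4 and 34.8 FPKM in ctrl 1 to 5. The lowest BKO value exceeded the highest ctrl value, and the SD within a group was 1.56 FPKM in BKO and 1.31 FPKM in ctrl. The log2 fold change was 0.61 (SE 0.0435, limma adjusted p = 4.46e-07), on a scale with 0.5 FPKM added, which understates changes of low genes. By p-value Eprs1 ranked 38 among the 14447 genes tested. Its fold change lay between 0.59 and 0.63 with any 1 library left out, and was 0.63 in the 4 libraries with little Ttr.

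The other members of the multisynthetase complex moved less. Mars1, the methionyl enzyme, was at 38.9, 39.0, 41.9, 41.0 and 40.9 FPKM in BKO 1 to 5, against 36.8, 36.1, 33.6, 36.0 and 33.5 FPKM in ctrl 1 to 5. The groups did not overlap, with a log2 fold change of 0.19 (SE 0.0465, limma adjusted p = 0.0217). Leaving out any of 4 libraries (BKO 3, BKO 4, BKO 5, ctrl 3) took it past the threshold, to a limma adjusted p of 0.0536 to 0.0666. In the GENCODE vM21 annotation 68 bases of its exons (2.29%) overlap the opposite-strand gene Ddit3, which encodes the stress factor CHOP. Ddit3 stood at 83.0 ± 2.80 FPKM in BKO and 54.1 ± 4.20 FPKM in ctrl libraries (SD, n = 5 each). Whether the counting used strand is not given in the sources used here, so a share of Mars1 from Ddit3 reads was not tested. Lars1, the leucyl enzyme, ranged from 23.7 to 26.9 FPKM in BKO and from 20.6 to 23.4 FPKM in ctrl libraries, also without overlap, and missed the threshold (log2 fold change 0.19, SE 0.0552, limma adjusted p = 0.0709). Iars1, the isoleucyl enzyme, differed by 0.13 on the log2 scale (SE 0.0602, limma adjusted p = 0.290). For Rars1, Kars1 and Qars1 the 95% intervals of the log2 difference ran from -0.07 to 0.13, -0.07 to 0.11 and -0.11 to 0.09. Kars1 makes both the cytosolic and the mitochondrial lysyl enzyme from 1 gene. Of the 7 complex members 2 were called, and of the 12 other cytosolic enzymes 4. Synthetases fall into 2 classes by the fold of their catalytic domain, and Eprs1 holds one of each. Of the 9 other class I enzymes of the cytosol 3 were called (median log2 difference 0.18), and of the 9 other class II enzymes 2 (median 0.07).

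Wars1, the tryptophanyl enzyme, is known from human cells to be induced by interferon-gamma. It was at 77.9, 86.4, 78.4, 87.8 and 83.6 FPKM in BKO 1 to 5, against 73.0, 70.4, 70.0, 69.0 and 66.3 FPKM in ctrl 1 to 5. The groups did not overlap, with BKO 1 and BKO 3 the nearest to ctrl, and the log2 fold change was 0.25 (SE 0.0460, limma adjusted p = 0.00387). Sars1, which charges serine, was at 216, 207, 232, 224 and 222 FPKM in BKO 1 to 5, against 186, 184, 184, 198 and 189 FPKM in ctrl 1 to 5. Here too the groups were apart (log2 fold change 0.23, SE 0.0402, limma adjusted p = 0.00252). With any 1 library left out both stayed called, at an adjusted p of up to 0.0144 for Wars1 and 0.0100 for Sars1 (limma).

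Aars1, the alanyl enzyme, was at 99.5, 98.5, 102, 105 and 98.5 FPKM in BKO 1 to 5, against 91.6, 88.7, 89.3, 91.2 and 84.0 FPKM in ctrl 1 to 5. The groups did not overlap and differed by a log2 fold change of 0.18 (SE 0.0391, limma adjusted p = 0.0135). Of its annotated exon bases 23.1% overlap Exosc6, an exosome subunit, on the same strand. Exosc6 had 8.47 ± 1.35 FPKM in BKO and 7.10 ± 1.17 FPKM in ctrl libraries (SD, n = 5 each). Reads in that stretch can fall on both genes, and how the counting treated such reads is not given in the sources used here. Cars1, the cysteinyl enzyme, was at 35.6, 34.6, 35.2, 35.5 and 33.4 FPKM in BKO 1 to 5, against 32.8, 28.8, 30.1, 32.0 and 30.4 FPKM in ctrl 1 to 5. The nearest libraries were BKO 5 and ctrl 1, and the log2 fold change was 0.18 (SE 0.0483, limma adjusted p = 0.0457). This call was lost when any 1 library other than ctrl 1 or ctrl 4 was left out (limma adjusted p = 0.0531 to 0.113), after median-of-ratios rescaling (limma adjusted p = 0.0507) or quantile normalization (limma adjusted p = 0.0615), and with the choroid plexus markers as a covariate (limma adjusted p = 0.0676), where the log2 fold change was also 0.18.

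**Figure D2:**
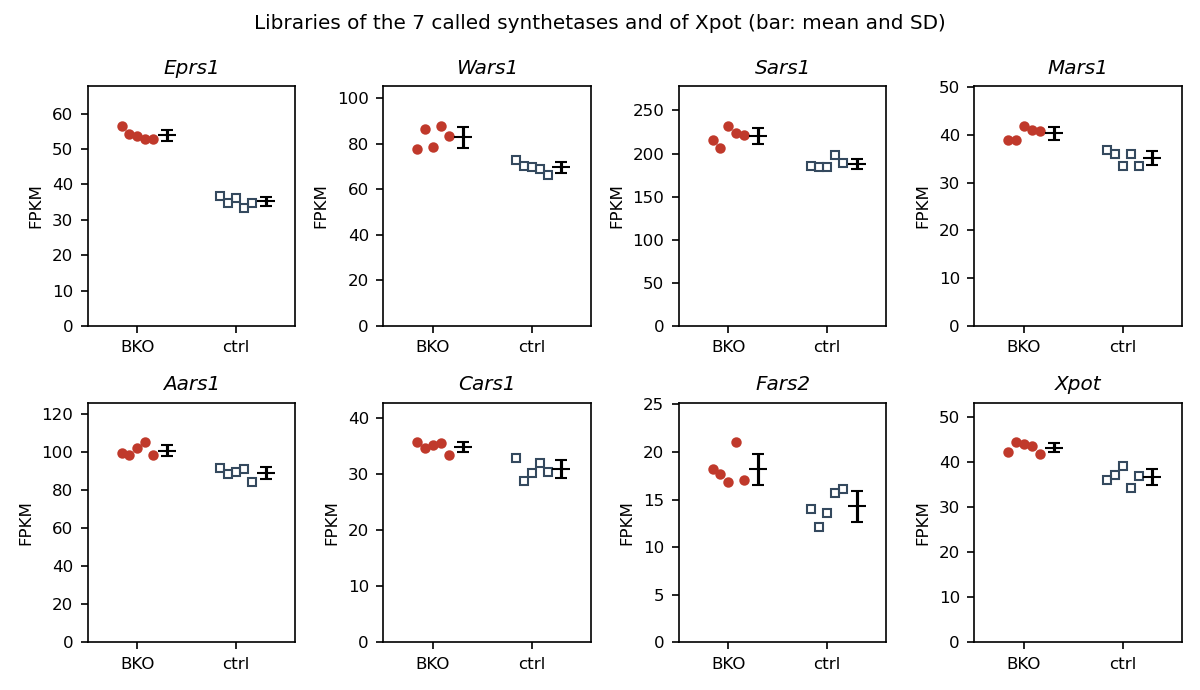
FPKM in each library (y axis from 0) for the 7 called synthetases and for Xpot, with BKO-labelled libraries as filled circles on the left and ctrl-labelled ones as open squares on the right of each panel. The bars give the mean and SD of 5 libraries, and in every panel all BKO points lie above all ctrl points.

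Vars1, the valyl enzyme, resembled Lars1, with 18.3 to 20.9 FPKM in BKO and 16 to 18.3 FPKM in ctrl libraries, the highest ctrl value lying just under the lowest BKO value. Its log2 difference of 0.21 (SE 0.0616) missed the threshold (limma adjusted p = 0.0682), and it passed without ctrl 4 (limma adjusted p = 0.0418), after rescaling to equal sums and with library weights. For 8 of the 19 cytosolic enzymes the lowest BKO value exceeded the highest ctrl value, the 6 called with Lars1 and Vars1, where 3.62% of all tested genes did so. The opposite order held for 0 of the 19 and for 3.09% of all genes. At an unadjusted p under 0.05 (limma), 10 of the 19 were higher and 0 lower, against 9.12% and 8.35% of all genes. The additional enzymes were Gars1, which makes the glycyl enzyme of both compartments, and the tyrosyl enzyme Yars1. Mutations of either are a known cause of inherited peripheral neuropathy. The median log2 fold change was 0.12 over the cytosolic enzymes, 0.09 over the mitochondrial ones and 0.00 over all tested genes.

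The intervals of the remaining cytosolic enzymes included 0. Nars1 averaged 178 ± 6.01 FPKM in BKO and 177 ± 3.25 FPKM in ctrl libraries (SD, n = 5 each), and its log2 difference had a 95% interval of -0.07 to 0.09. Hars1, the histidyl enzyme, had 72.7 ± 3.04 FPKM in BKO and 73.3 ± 2.41 FPKM in ctrl libraries, with an interval of -0.10 to 0.08. Farsb, the beta subunit of the phenylalanyl enzyme, had 51.5 ± 2.32 FPKM in BKO and 52.4 ± 1.74 FPKM in ctrl libraries, with an interval of -0.12 to 0.07. The alpha subunit Farsa had an interval of -0.05 to 0.19, and the threonyl enzyme Tars1 one of -0.03 to 0.26.

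**Figure D3:**
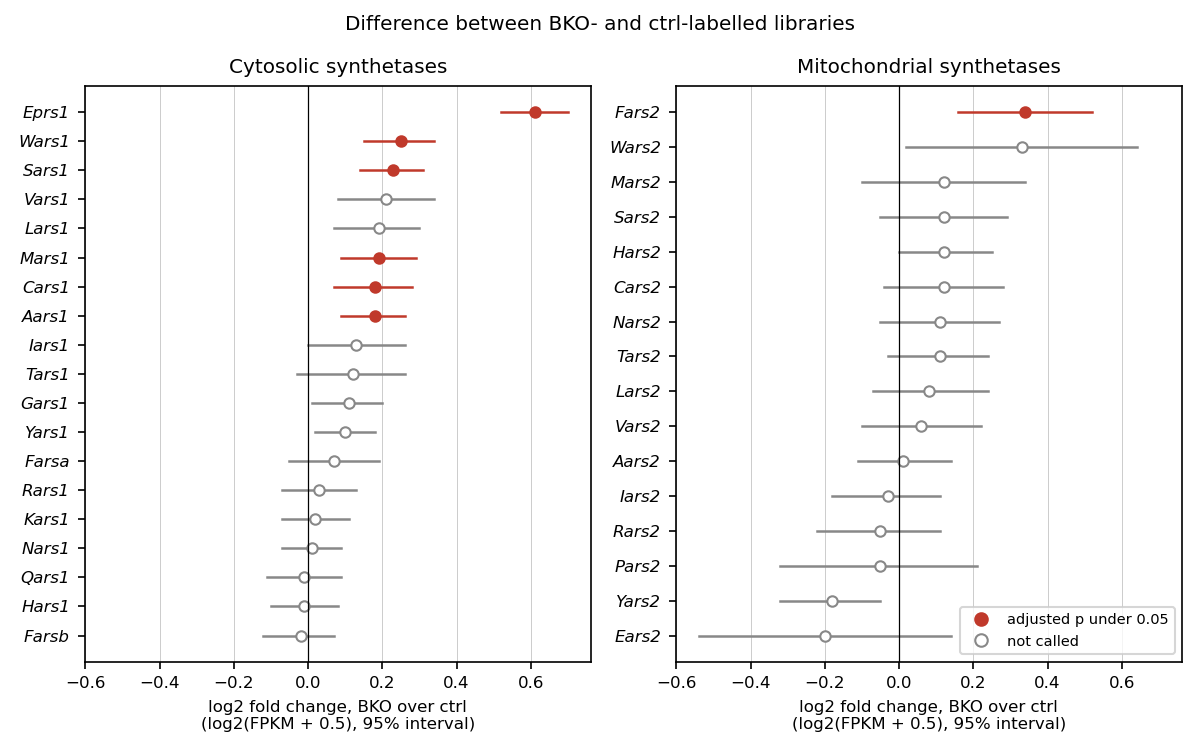
Log2 fold change of BKO- over ctrl-labelled libraries (x axis, log2(FPKM + 0.5)) for the 19 cytosolic enzymes on the left and the 16 mitochondrial enzymes on the right, ordered by size, with limma's 95% intervals. Filled red points passed an adjusted p of 0.05, which 6 cytosolic enzymes and 1 mitochondrial enzyme did, and the mitochondrial intervals are wider (median SE 0.0760 against 0.0460).

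Fars2, the mitochondrial phenylalanyl enzyme, was the single mitochondrial member called. It was at 18.2, 17.7, 16.9, 21.0 and 17.1 FPKM in BKO 1 to 5, against 14.0, 12.1, 13.6, 15.7 and 16.1 FPKM in ctrl 1 to 5. The lowest BKO library, BKO 3, lay just above the highest ctrl library, ctrl 5. Its log2 fold change was 0.34 (SE 0.0840, limma adjusted p = 0.0270), and leaving out any of 5 libraries (BKO 1, BKO 4, ctrl 1, ctrl 2, ctrl 3) ended the call, at a limma adjusted p of 0.0554 to 0.0732, as did testing with no filter (limma adjusted p = 0.0503). Of its exon bases 4.90% overlap Lyrm4 on the opposite strand, which had 89.4 ± 9.99 FPKM in BKO and 78.6 ± 6.84 FPKM in ctrl libraries (SD, n = 5 each).

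The other 15 mitochondrial enzymes were not called, and their log2 differences ran from -0.20 for Ears2 to 0.33 for Wars2. At an unadjusted p under 0.05 (limma), 2 of the 16 were higher (Fars2 and Wars2) and 1 was lower (Yars2), where 9.12% of all tested genes were higher and 8.35% lower. Wars2, the tryptophanyl enzyme, was low and variable, with 4.59 ± 0.481 FPKM in BKO and 3.62 ± 0.947 FPKM in ctrl libraries (SD, n = 5 each; limma adjusted p = 0.242). Hars2 was above every ctrl library in all BKO libraries, at 21.5 to 23.7 FPKM in BKO against 18.2 to 21.5 FPKM in ctrl libraries, but the gap was small (log2 difference 0.12, SE 0.0583, limma adjusted p = 0.296). Hars1 and Hars2 share 195 exon bases on opposite strands. Yars2, the tyrosyl enzyme, was at 14.6, 13.5, 16.1, 14.1 and 14.3 FPKM in BKO 1 to 5, against 17.7, 16.5, 16.5, 15.4 and 16.7 FPKM in ctrl 1 to 5 (log2 difference -0.18, SE 0.0626, limma adjusted p = 0.118). Of the BKO libraries 4 lay below all ctrl libraries, and BKO 3 did not. The prolyl enzyme Pars2 and the arginyl enzyme Rars2 had intervals of -0.32 to 0.21 and -0.22 to 0.11.

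Whether a cytosolic enzyme moved relative to its mitochondrial partner was tested for 16 amino acids, with the log2 ratio of the 2 genes in each library (exact permutation test over libraries, 2-sided, smallest p 0.00794, Benjamini-Hochberg over the 16). The ratio was higher in BKO libraries for 12 amino acids and lower for 4, with a median difference of 0.09. At an adjusted p under 0.05 it was higher for glutamate, proline and tyrosine and lower for phenylalanine. Eprs1 is the cytosolic enzyme for both glutamate and proline, so these are not separate results.

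The log2 ratio of Eprs1 to Pars2 was 3.58, 3.53, 3.15, 3.30 and 3.13 in BKO 1 to 5, against 2.98, 2.92, 2.46, 2.53 and 2.48 in ctrl 1 to 5. The groups were apart by 0.66 (SE 0.147, exact permutation p = 0.00794, adjusted 0.0317). The ratio of Eprs1 to Ears2 differed by 0.81 (SE 0.187, same p-values), on Ears2 levels of 1.87 to 3.41 FPKM in BKO and 2.24 to 3.65 FPKM in ctrl libraries. For tyrosine the log2 ratio of Yars1 to Yars2 was 2.61, 2.61, 2.43, 2.69 and 2.62 in BKO 1 to 5, against 2.25, 2.30, 2.34, 2.37 and 2.27 in ctrl 1 to 5. It differed by 0.28 (SE 0.0498, exact permutation p = 0.00794, adjusted 0.0317) although neither gene was called alone, Yars1 being at 89.9 ± 3.34 FPKM in BKO and 83.8 ± 1.92 FPKM in ctrl libraries (SD, n = 5 each).

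For phenylalanine the difference had the opposite sign. The mean log2 of Farsa and Farsb stood above that of Fars2 by 1.01, 1.10, 1.15, 0.87 and 1.11 in BKO 1 to 5, against 1.41, 1.54, 1.40, 1.32 and 1.16 in ctrl 1 to 5. The difference was -0.32 (SE 0.0798, exact permutation p = 0.00794, adjusted 0.0317), with BKO 3 and ctrl 5 nearly touching. Alanine had a difference of 0.17 (SE 0.0482, exact permutation p = 0.0238, adjusted 0.0762). For serine and tryptophan, whose cytosolic enzymes were called, the difference did not pass this test (0.11, SE 0.0933, exact permutation p = 0.254, and -0.08, SE 0.152, exact permutation p = 0.595). With 1 library left out the number of amino acids that passed was 0 to 3, and 0 without BKO 1, BKO 2, BKO 3, BKO 4, ctrl 3 or ctrl 4. Over these 10 settings the differences were 0.69 to 0.91 for glutamate, 0.61 to 0.74 for proline, 0.26 to 0.32 for tyrosine and -0.37 to -0.27 for phenylalanine, with adjusted exact permutation p-values of 0.0423 to 0.0635. With 1 library left out the exact test has fewer assignments, but its p-values come in the same steps. The lost calls are therefore not due to a coarser test. In the 4 libraries with little Ttr the differences were 0.50 for Eprs1 against Pars2, 0.72 against Ears2, 0.22 for tyrosine and -0.42 for phenylalanine, with no test.

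**Figure D4:**
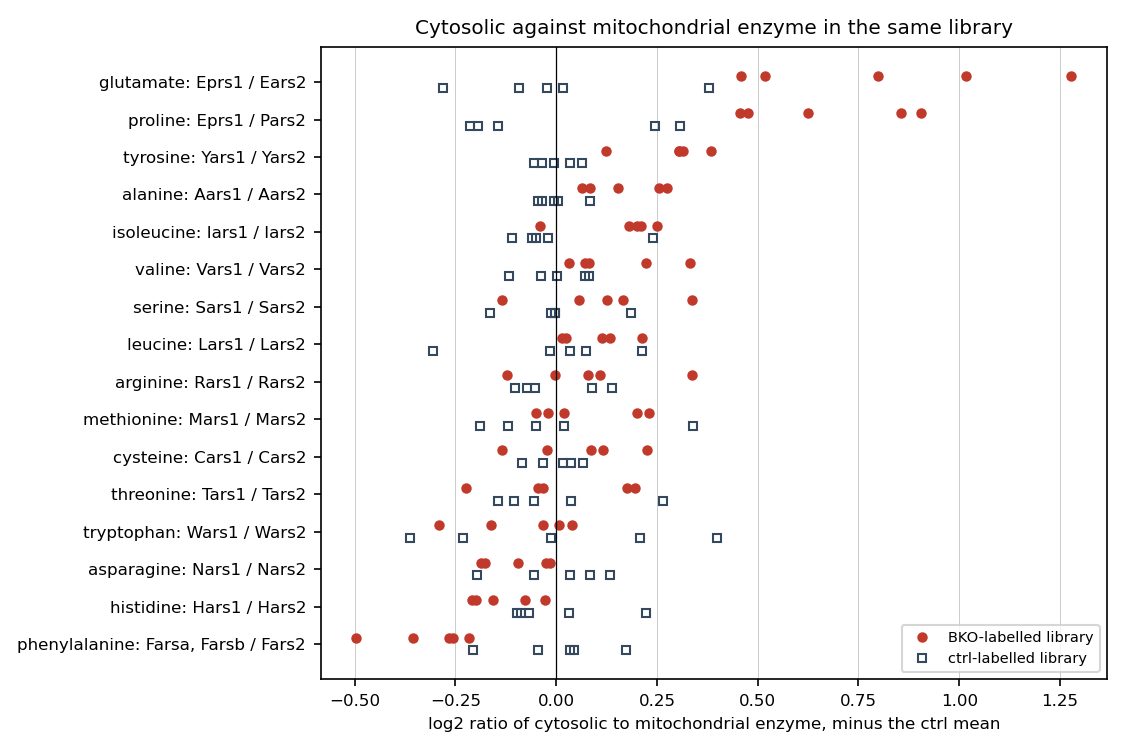
Log2 ratio of the cytosolic to the mitochondrial enzyme of each amino acid in each library, with the ctrl mean of that amino acid set to 0 (x axis). Filled circles are BKO-labelled and open squares ctrl-labelled libraries, and the groups do not overlap for glutamate, proline and tyrosine (BKO higher) and for phenylalanine (BKO lower).

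Around the synthetases, 45 genes of tRNA supply and elongation were tested, of which 1 was higher and 0 lower. At an unadjusted p under 0.05 (limma) 4 were higher and 2 lower. The 1 called was Xpot, exportin-t, which carries tRNAs out of the nucleus. It was at 42.3, 44.3, 43.9, 43.6 and 41.8 FPKM in BKO 1 to 5, against 36.0, 37.0, 39.0, 34.2 and 36.9 FPKM in ctrl 1 to 5. The groups were apart (log2 fold change 0.24, SE 0.0459, limma adjusted p = 0.00505). Among the 14 genes of tRNA maturation and export no other was called.

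The scaffold proteins of the multisynthetase complex, Aimp1, Aimp2 and Eef1e1, were not called, with log2 differences of -0.01, -0.06 and -0.05 and 95% intervals within -0.20 to 0.11. Of 6 cytosolic elongation factors 0 were called by limma and 3 had an unadjusted p under 0.05, the largest difference being 0.16 for Eef1b2. Eef2, the translocation factor, was at 726 to 768 FPKM in BKO and 667 to 709 FPKM in ctrl libraries, without overlap (log2 difference 0.10, SE 0.0357, limma adjusted p = 0.121). Of 11 mitochondrial translation factors 0 were called and 0 had an unadjusted p under 0.05 (limma), with log2 differences from -0.11 to 0.08. Nor were any of the 3 subunits of the amidotransferase that makes mitochondrial glutaminyl-tRNA (0 at an unadjusted p under 0.05) or of 5 genes listed for tRNA editing and deacylation. Of these 5, 1 was lower at an unadjusted p under 0.05, Prxl2a, which encodes a peroxiredoxin-like protein and not an enzyme of tRNA editing. Tars3, a threonyl gene beside Tars1 and Tars2, was not called (log2 difference -0.18, SE 0.0587, limma adjusted p = 0.0991), with 25.1 ± 1.64 FPKM in BKO and 28.5 ± 1.53 FPKM in ctrl libraries (SD, n = 5 each). Atf4 itself was at 200 to 214 FPKM in BKO and 163 to 175 FPKM in ctrl libraries, without overlap (log2 fold change 0.27, SE 0.0366, limma adjusted p = 0.000242).

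In BKO 3 and BKO 4 against ctrl 2 and ctrl 4, the libraries with little Ttr, the log2 fold changes were 0.63 for Eprs1, 0.25 for Wars1, 0.26 for Sars1, 0.20 for Mars1, 0.20 for Aars1, 0.22 for Cars1 and 0.44 for Fars2. With 2 libraries a label Eprs1 alone passed (limma adjusted p = 0.00685). With the choroid plexus markers as a covariate over all 10 libraries, 5 cytosolic enzymes and 1 mitochondrial enzyme were higher and 0 were lower.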

How the data were processed

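RNA was sequenced from brain cortex, with 5 libraries labelled BKO and 5 labelled ctrl. The deposited table holds FPKM values computed by the authors, by a formula not given in the sources used here, 1 column per library, summing to between 730340 and 766786 per library. STAR, HTSeq and mm39 are named per the submitters' processing notes, without versions. The labels name Trizol for total RNA and an MGIEasy kit for the libraries. Read totals and strand use are not given in the sources used here, so depth is not known and intervals cover the spread between libraries only. The table had 0 columns of other samples.

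Of 22198 genes, the 14447 that reached 0.5 FPKM in 5 or more libraries were tested as log2(FPKM + 0.5) with limma 3.58.1 in R 4.3.3 (eBayes with a trend, 2-sided). Each SE of a fold change comes from limma, after moderation. Ratios of partner enzymes were compared with an exact permutation test in Python 3.11.15. The fit was tested on simulated data, with changes placed in genes drawn from all tested genes. It recovered 16 of 50 changes of 0.25 on the log2 scale, 33 of 50 of 0.5, 44 of 50 of 1 and 50 of 50 of 2. Of 14247 unchanged genes it called 10. Among genes drawn in this way many changes of 0.25 would thus be missed, and smaller ones were not simulated. The median SE was 0.0783 over all tested genes, 0.0460 over the cytosolic and 0.0760 over the mitochondrial enzymes. These shares therefore do not give the rate at which changes of synthetases are missed. The members, lists and tests were chosen with earlier results of these data known. All 35 members could be named, with the scaffolds, Atf4, Chchd3 and the pathway genes that passed. Ddit3, Exosc6 and Lyrm4, which overlap called members, and Eef1b2, Eef2, Prxl2a and Tars3 were named after their values were seen. Promoter sequences are from RefSeq (GRCm38.p6), another build than that of the deposited table. Exon overlaps are from GENCODE vM21. Alternatives were other pseudocounts, filters and scalings, the replicate number as a block, library weights, a robust fit and leaving out each library. Those on Ttr and choroid plexus markers were chosen after the data were seen.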

Additional observations from a re-analysis of the deposited data

Results flagged for a closer look

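Within the groups of 5, 3 values lay far from the other 4 of their label, by Dixon's ratio of the gap to the range. Iars1 was at 22.2 FPKM in ctrl 5, against 25.6 to 26.5 FPKM in the other ctrl libraries. Qars1 was at 39.2 FPKM in ctrl 4, against 35.1 to 36.2 FPKM in the others. Hars2 was at 18.2 FPKM in ctrl 2, against 20.9 to 21.5 FPKM in the others. Of 82 groups examined, chance would flag about 4.1.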

How the results depend on the processing

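With 22 other settings, no called member changed direction, and Eprs1 was called under each (log2 fold change 0.59 to 0.63). The number of cytosolic enzymes higher in BKO, 6, was 4 to 8 under the planned settings and 4 to 7 when single libraries were dropped. It was 1 in the 4 libraries with little Ttr. The mitochondrial number, 1, was 0 with no filter, 0 to 1 when single libraries were dropped and 0 among the 4 libraries. In these 4 libraries 148 of all genes were higher and 103 lower, against 480 and 356, and 0 of the pathway genes were higher. That fit has 2 libraries a label. With 1 library left out the totals were 380 to 513 higher and 264 to 349 lower.

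Same-numbered libraries did not deviate together (correlations from -0.169 to 0.0855), so the numbers are not taken as pairs. With the replicate number as a block, Mars1 (adjusted p = 0.0805) and Cars1 (adjusted p = 0.0904) were no longer called by limma, and Eprs1 was. The number of amino acids whose ratio differed, 4, was 0 with the replicate block, where 5 pairs cannot reach the threshold, and 0 to 3 with 1 library left out. Depth is unknown, and the SE of mitochondrial enzymes, up to 0.158, limits what could be called among them.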
